A study of Homo sapiens with 12 samples.

Results

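The comparison is between HCT116 cells rescued with DICER R821E and HCT116 cells rescued with wild-type DICER (WT), measured by small-RNA sequencing. It rests on the 2 libraries titled as R821E rescue and the 2 titled as wild-type rescue, 4 of the 12 libraries of the series, and on every miRNA entry in their count tables. These are 1346 of 1376 rows, the other 30 being spike-in sequences. HCT116 is an epithelial line from a human colorectal carcinoma. In R821E, by its name, an arginine of DICER is replaced by glutamate, which exchanges a positively charged residue for a negatively charged one. The other 8 libraries hold 4 further rescues with 2 libraries each: E5, A5, ΔPAZ helix and R821A, the last with alanine at the same residue, while the labels leave the meaning of E5 and A5 unstated. Every group is a rescue, WT included. The state of the cells' own DICER1 alleles, the vector and promoter of the rescue, and whether a group is a single clone are not stated in the labels. The series concerns the structure of DICER bound to a precursor while it cuts, and the comparison asks how the exchange of this arginine alters the miRNAs that cells make.

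DICER is the RNase III enzyme that cuts the loop off a precursor hairpin (pre-miRNA). The cut leaves a short duplex whose 5p strand comes from the upstream arm of the hairpin and whose 3p strand comes from the downstream arm. An Argonaute protein then keeps one strand, and the retained strand finds its target RNAs mainly through its seed, bases 2 to 8 from its 5′ end. The position of the DICER cut fixes the 3′ end of the 5p strand and the 5′ end, and with it the seed, of the 3p strand. Strand choice depends on which duplex end is the less stable and on the first base of each strand, with uracil and adenine favoured at the first position.

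The mature miRNAs on which the results turn are printed 5′ to 3′, as given by RefSeq for GRCh38.p14, with the seed in capitals. RefSeq matched 1179 of the 1346 entries, which held 92.5% of the miRNA counts, and 331 of the 374 entries that were tested. The first set holds strands that were lower in R821E and share a seed with a paralogue, so that the shared letters of each pair can be read beside their values. miR-25-3p, miR-92a-3p and miR-92b-3p share the seed AUUGCAC, miR-221-3p and miR-222-3p the seed GCUACAU, miR-27a-3p and miR-27b-3p the seed UCACAGU, and miR-103a-3p and miR-107 the seed GCAGCAU.
miR-25-3p: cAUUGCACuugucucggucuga
miR-92a-3p: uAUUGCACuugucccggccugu
miR-92b-3p: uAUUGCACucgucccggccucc
miR-221-3p: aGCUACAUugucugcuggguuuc
miR-222-3p: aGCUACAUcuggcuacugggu
miR-27a-3p: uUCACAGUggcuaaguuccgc
miR-27b-3p: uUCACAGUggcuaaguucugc
miR-103a-3p: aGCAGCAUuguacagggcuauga
miR-107: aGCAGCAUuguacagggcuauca

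The second set holds single strands that led the falls on the 5p side (miR-185-5p, miR-324-5p), let-7 strands of one seed (GAGGUAG) that differed in how far they were lowered, and a pair with the seed ACCCGUA that was called in opposite directions (miR-100-5p and miR-99b-5p). It also holds miR-21-5p, the most abundant entry of every library, the seed partners miR-16-5p and miR-15a-5p (AGCAGCA), and the leading rises miR-8072 and miR-573.
miR-185-5p: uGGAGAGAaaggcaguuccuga
miR-324-5p: cGCAUCCCcuagggcauuggug
let-7d-5p: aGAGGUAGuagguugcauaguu
let-7i-5p: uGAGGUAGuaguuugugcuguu
let-7b-5p: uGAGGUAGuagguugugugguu
miR-100-5p: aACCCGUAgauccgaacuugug
miR-99b-5p: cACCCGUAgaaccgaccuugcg
miR-21-5p: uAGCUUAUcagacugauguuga
miR-16-5p: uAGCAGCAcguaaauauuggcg
miR-15a-5p: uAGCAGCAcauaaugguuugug
miR-8072: gGCGGCGGggagguaggcag
miR-573: cUGAAGUGauguguaacugaucag

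Whole hairpins are shown for 5 of the miRNAs whose strand balance changed, also from RefSeq and GRCh38.p14, with both mature arms in capitals and the loop and flanks in lower case. In miR-29a, miR-27a and miR-454, which moved toward the 5p strand, the downstream arm begins with U. In miR-26b and let-7b, which moved toward the 3p strand, it begins with C.
miR-29a: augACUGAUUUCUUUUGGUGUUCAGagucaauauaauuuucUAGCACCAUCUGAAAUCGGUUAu
miR-27a: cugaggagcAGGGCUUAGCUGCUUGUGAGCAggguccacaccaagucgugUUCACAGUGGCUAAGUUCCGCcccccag
miR-454: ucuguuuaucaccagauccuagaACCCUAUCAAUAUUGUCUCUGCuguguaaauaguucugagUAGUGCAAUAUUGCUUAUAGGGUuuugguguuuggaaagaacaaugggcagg
miR-26b: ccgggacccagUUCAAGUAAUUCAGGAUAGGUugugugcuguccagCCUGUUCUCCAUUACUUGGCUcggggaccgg
let-7b: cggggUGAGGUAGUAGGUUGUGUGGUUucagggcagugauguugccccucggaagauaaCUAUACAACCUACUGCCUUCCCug

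The miR-29a hairpin lies on the minus strand at chr7:130876747-130876810, in an intron of the non-coding gene AC016831.6 in GENCODE v29. The miR-25-3p strand lies at chr7:100093571-100093592 (minus strand), in an intron of MCM7, a gene that also hosts miR-106b and miR-93. miR-185-5p lies at chr22:20033153-20033174 (plus strand) in an intron of TANGO2, and miR-21-5p at chr17:59841273-59841294 (plus strand) in an exon annotated to VMP1. miR-221-3p lies at chrX:45746180-45746202 (minus strand) in an intron of the non-coding gene MIR222HG, and miR-8072 at chr12:123364814-123364833 (minus strand) in an exon of SBNO1. Several named strands come from more than 1 locus, and their counts cannot be assigned to a single locus. Among them are miR-92a-3p, miR-103a-3p, miR-16-5p, miR-24-3p, miR-19b-3p, miR-29b-3p, let-7a-5p, let-7f-5p, miR-181a-5p and miR-181b-5p.

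Depth in the 4 libraries was 144067 to 250755 counts for miRNAs and 9529 to 14969 for spike-ins. The labels do not say whether the paired libraries of a rescue were grown as separate cultures. The p-values for entries, hairpins and seeds below measure the spread between libraries of the same rescue, pooled over all 12 libraries. This spread may therefore be technical. Replicates differed by more than counting noise in both groups (chi-square per degree of freedom 25.6 in WT and 4.60 in R821E), and WT replicates differed most of the 6 groups, with a median absolute log2 difference of 0.408 against 0.261 in R821E. All 9 epithelial and colorectal marker miRNAs were in the files, while miR-133a-3p of muscle and miR-124-3p of neurons were at 0 in the 4 libraries. Summed leukocyte markers were 280 to 386 CPM (counts scaled to a common library size by TMM, defined below) in WT and 156 to 208 in R821E, against 29390 to 46740 and 29080 to 29390 for the epithelial list, most of it miR-31-5p. The neuronal list, here miR-9-5p alone, was at 490.7 and 497.8 in WT and 1220 and 1216 in R821E, and the erythroid list at 236.7 and 222.1 against 374.0 and 451.5. Endothelial and fibroblast lists were lower in R821E, at 264.2 to 421.1 against 91.96 to 121.6 and at 467.2 to 542.9 against 275.9 to 338.6. The part of such cells in the results was not tested.

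R821E libraries held less miRNA relative to the spike-ins, and in proportion the 3p strands were lowered more than the 5p strands. Counts of 3p entries per spike-in count were 6.16 and 6.46 in the WT libraries and 1.70 and 1.59 in the R821E libraries, 26.1% of WT on average. Both R821E libraries were far below both WT libraries and below the 8 libraries of the other mutants, which ranged from 3.33 to 5.16. Counts of 5p entries without miR-21-5p were 6.78 and 6.92 per spike-in count in WT and 3.77 and 3.51 in R821E, 53.1% of WT, with the other mutants at 4.96 to 5.76. miR-21-5p, which alone made up 37.7% and 43.2% of WT counts, stood at 8.45 and 11.2 per spike-in count in WT and at 8.89 and 7.22 in R821E, so the groups overlapped. Entries without an arm in their name overlapped as well, at 1.03 and 1.35 against 0.970 and 1.05. Dividing all 5p by all 3p counts gave 2.47 and 2.81 in WT and 7.45 and 6.73 in R821E, with 2.47 to 4.01 in the other mutants.

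Each of these library values was compared by a two-sided exact permutation test of 2 against 2 libraries, for which the smallest p possible is 0.333. That value was reached by all 13 library quantities except the counts per spike-in count of miR-21-5p and of entries without an arm (exact p = 0.667), and the adjusted values (Benjamini-Hochberg over 13 exact tests) were 0.394 and 0.667. Libraries are bulk RNA, so fewer cells and less miRNA per cell cannot be told apart, nor can a difference in the amount of spike-in added, which the labels do not state. Among the 29 spike-in sequences with a mean of at least 20 counts, the median absolute log2 change of a sequence's share between the groups was 0.233.

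**Figure D1:**
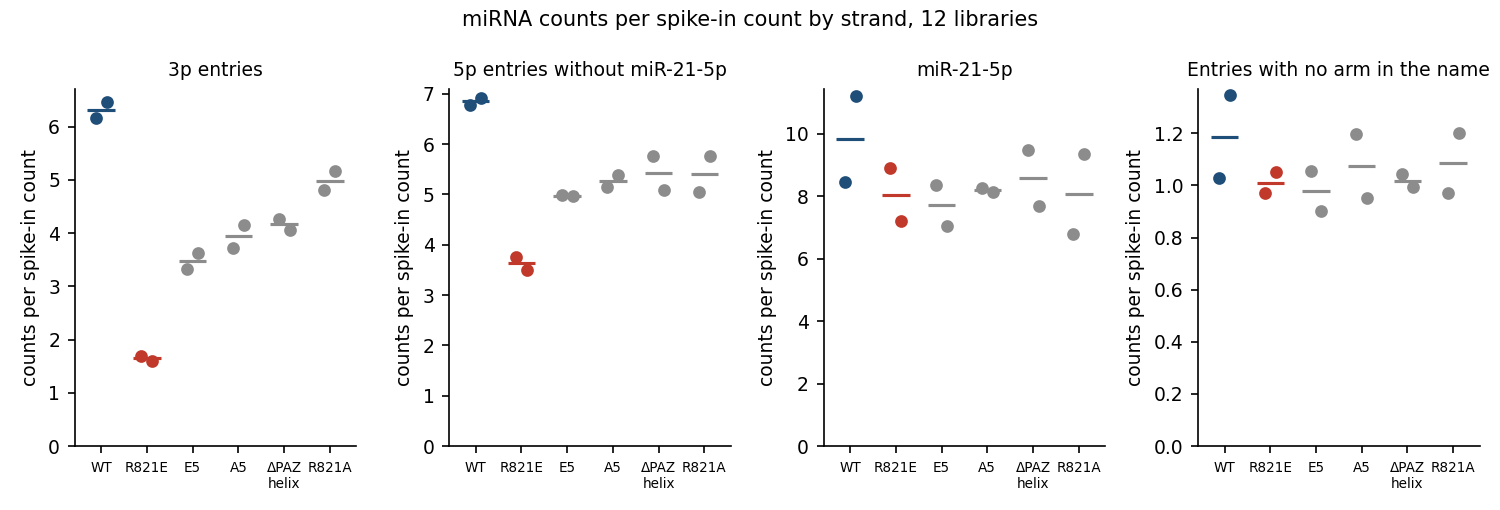
miRNA counts per spike-in count in each of the 12 libraries (points) with group means (bars), for 3p entries, 5p entries without miR-21-5p, miR-21-5p and entries with no arm in the name. The 2 R821E libraries sit at 1.70 and 1.59 in the 3p panel, below every other library, and within the range of the others for miR-21-5p.

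Single entries were tested on 2 scales, because the loss relative to the spike-ins was large. The TMM scale sets each library by the trimmed mean of its miRNAs, so that a change is relative to the bulk of the other miRNAs. The spike-in scale sets each library by its spike-in total. An entry is called when the adjusted p of edgeR's quasi-likelihood test (Benjamini-Hochberg over all 374 tested entries) is under 0.05, and "rose" and "fell" below refer to called entries on the scale named. On the TMM scale 89 entries rose (23.8% of those tested) and 90 fell (24.1%). Against the spike-ins there was 1 rise (0.267%) and there were 226 falls (60.4%), together 60.7%. Both R821E libraries lay above both WT libraries in 130 entries (34.8%) and below them in 149 (39.8%) on the TMM scale. On the spike-in scale they lay above in 8 (2.14%) and below in 274 (73.3%), which is the background for the statements on overlap that follow. All 90 entries that fell on the TMM scale fell on the spike-in scale too, 126 others fell on the spike-in scale alone, 78 rose on the TMM scale without a call on the spike-in scale, and 10 rose on the first and fell on the second. The median log2 fold change of R821E over WT was -0.10 on the TMM scale and -1.38 against the spike-ins. With plain library totals as the scale the median was -0.65, with 40 entries higher and 148 lower. A rise on the TMM scale is therefore a statement about the rank of a miRNA among the others, and the levels below are given as counts per 1000 spike-in counts.

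By strand, 28 of 174 5p entries fell and 50 rose on the TMM scale, and 56 of 148 3p entries fell and 18 rose. Without R821E replicate 1 the counts were 17 and 32 for 5p and 31 and 15 for 3p. Without R821E replicate 2 they were 18 and 42 for 5p and 29 and 14 for 3p. The median log2 fold change of 3p entries was -0.58 on the TMM scale and -1.88 against the spike-ins, negative under every scaling run. The median of 5p entries was 0.17 on the TMM scale, -0.39 with library totals and -1.12 on the spike-in scale. Entries without an arm in their name had medians of 0.81 (TMM scale) and -0.47 (spike-in scale), and 17 of 52 fell on the latter.

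miR-25-3p, a member of the proliferative miR-106b~25 cluster, had the largest fall among entries with at least 1000 CPM in WT. It was counted 105 and 95.1 times per 1000 spike-in counts in the WT libraries and 6.15 and 6.401 times in the R821E libraries. The groups were far apart, and the 8 libraries of the other mutants lay between them at 30.2 to 57.3. The log2 fold change was -2.70 ± 0.162 (SE) on the TMM scale and -3.99 ± 0.173 against the spike-ins (edgeR, adjusted p = 7.16e-08 and 1.66e-09). miR-92a-3p, of the same seed, was at 169.5 and 176.8 in WT and 23.9 and 23.2 in R821E per 1000 spike-in counts, and miR-92b-3p at 13.7 and 22.8 against 1.94 and 2.23. Both fell with no overlap, by 1.58 and 1.82 on the TMM scale. Counts summed over the seed AUUGCAC changed by -1.46 (log2, TMM scale) and -2.80 (spike-in scale).

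miR-185-5p, encoded in TANGO2, was at 16.9 and 12.8 per 1000 spike-in counts in WT and 0.802 and 0.742 in R821E. Its log2 fold change was -2.96 ± 0.311 on the TMM scale and -4.24 ± 0.316 against the spike-ins (edgeR, adjusted p = 1.31e-05 and 2.07e-07). That was the largest called fall on the TMM scale among entries with at least 100 CPM in either group and groups apart. It rests on 12 and 8 counts in R821E. The other mutants were intermediate here as well, at 2.96 to 6.18. miR-324-5p, a regulator of Hedgehog signalling, went from 18.3 and 10.9 to 0.935 and 1.95 per 1000 spike-in counts, a log2 fold change of -2.11 on the TMM scale. miR-193a-3p went from 4.65 and 7.24 to 0.668 and 0.464, and let-7i-3p from 11.9 and 12.2 to 1.20 and 1.67. In none of these did the groups overlap, and all of miR-185-5p, miR-25-3p, miR-324-5p, miR-193a-3p, miR-92b-3p, miR-877-5p and let-7i-3p stayed called on the TMM scale when any 1 of the 4 libraries was left out.

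miR-107 and miR-103a-3p differ in a base near their 3′ ends and target DICER1 itself, among others. miR-107 was at 20.8 and 9.45 per 1000 spike-in counts in WT and at 1.87 and 1.30 in R821E, and miR-103a-3p at 115 and 66.0 against 14.2 and 10.8. The WT libraries differed from each other, and both R821E libraries lay well below them. The log2 fold changes on the TMM scale were -1.95 ± 0.485 and -1.57 ± 0.337 (edgeR, adjusted p = 0.00641 and 0.00378), and without R821E replicate 2 miR-107 lost its call (adjusted p = 0.0716). Besides miR-3187-3p, which had 55 counts in WT and 6 in R821E, the remaining large falls were miR-483-5p (-1.77), miR-99b-3p (-1.85), miR-1180-3p (-1.88) and miR-877-5p (-1.89). Of these, miR-1180-3p lost its call without R821E replicate 2, and miR-483-5p and miR-99b-3p lost theirs without R821E replicate 1, while these 4 were all lower on the spike-in scale.

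Among the 10 entries highest in WT, the order of abundance changed. miR-222-3p and miR-221-3p, which repress the cell-cycle inhibitor CDKN1B, were the second and the fourth. miR-222-3p was at 1844 and 1711 per 1000 spike-in counts in WT and 394.5 and 371.6 in R821E, and miR-221-3p at 693 and 651 against 95.9 and 85.4. Both fell on both scales with no overlap, with log2 fold changes of -0.92 ± 0.136 and -1.59 ± 0.144 on the TMM scale (edgeR, adjusted p = 1.73e-04 and 4.49e-06). miR-27a-3p, a metabolic and oncogenic regulator, went from 387.7 and 281.1 to 46.4 and 49.3, and miR-24-3p from 315.4 and 227.5 to 56.9 and 56.5. Both fell on both scales. miR-27a comes from the miR-23a27a24-2 transcript, and miR-24-3p from that one and from the miR-23b27b24-1 transcript. miR-31-5p, an intestinal oncogenic miRNA, went from 1114 and 716.5 to 300.2 and 291.6, which was a fall on the spike-in scale (-1.63 ± 0.210; edgeR, adjusted p = 1.54e-05) and no call on the TMM scale (-0.34; edgeR, adjusted p = 0.221).

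Of the other abundant entries, miR-100-5p, miR-4521 and miR-21-5p kept their level against the spike-ins within the spread of the replicates. miR-100-5p was at 340 and 322 per 1000 spike-in counts in WT and 337 and 315 in R821E, and its log2 fold change was 1.27 ± 0.135 on the TMM scale and -0.02 ± 0.145 against the spike-ins (edgeR, adjusted p = 1.31e-05 and 0.921). The values of the groups interleave. miR-4521 was at 290.5 and 365.7 against 302.3 and 280.4, also overlapping, with a log2 fold change of 1.13 on the TMM scale and -0.17 against the spike-ins. miR-21-5p, which represses PDCD4, changed by 1.01 ± 0.159 in log2 on the TMM scale and -0.29 ± 0.197 against the spike-ins (edgeR, adjusted p = 2.61e-04 and 0.224). Its passenger strand miR-21-3p was called on neither scale and differed widely between the WT libraries, at 185.5 and 486.5 per 1000 spike-in counts. miR-16-5p, a repressor of BCL2 and cyclins, went from 318.6 and 320.5 to 213.9 and 199.6, which was a rise on the TMM scale (0.67) and a fall on the spike-in scale (-0.63).

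**Figure D2:**
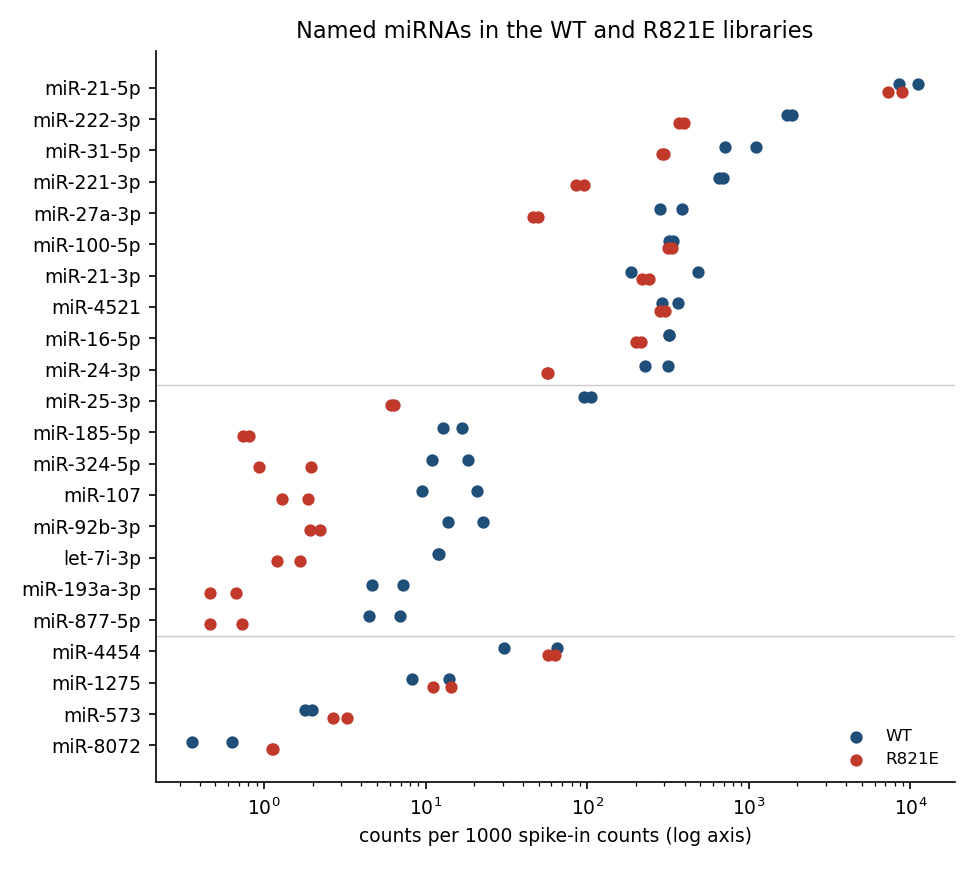
Counts per 1000 spike-in counts (log axis) of 22 named miRNAs in the 2 WT and 2 R821E libraries: the 10 highest in WT, then leading falls, then leading rises. miR-25-3p drops from 105 and 95.1 to 6.15 and 6.401, while the points of miR-100-5p and miR-21-5p overlap between groups.

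miR-8072 led the rises and was the only entry called higher on the spike-in scale. It had 4 and 6 counts in the WT libraries and 17 and 12 in the R821E libraries, that is 0.358 and 0.630 against 1.14 and 1.11 per 1000 spike-in counts. Both R821E libraries were above both WT libraries and above the other mutants, whose highest value was 0.583. The log2 fold change was 2.48 ± 0.462 on the TMM scale and 1.20 ± 0.466 against the spike-ins (edgeR, adjusted p = 9.18e-04 and 0.0397). The second call was lost without WT replicate 1 or either R821E library, with adjusted p of 0.115 to 0.251 by edgeR. miR-573, in an intron of DHX15, came next with 1.79 and 1.99 against 3.27 and 2.69 per 1000 spike-in counts, no overlap, and a log2 fold change of 1.96 on the TMM scale and 0.67 against the spike-ins, the latter not called (edgeR, adjusted p = 0.132).

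The other 10 largest rises on the TMM scale were miR-1275 (1.52), miR-6724-5p (1.48), miR-4484 (1.58), miR-3687 (1.64), miR-26b-3p (1.48), miR-548b-5p (1.77), miR-181b-3p (1.57), miR-3653-5p (1.48), miR-128-1-5p (1.64) and miR-4454 (1.66). On the spike-in scale their log2 fold changes lay between 0.17 and 0.48 and none was called. miR-548b-5p lost its TMM call without R821E replicate 1, miR-128-1-5p without R821E replicate 2, and miR-26b-3p without WT replicate 1 or either R821E library. miR-451a, which AGO2 cuts in place of DICER, was at 3.94 and 3.36 per 1000 spike-in counts in WT and 2.67 and 3.34 in R821E. Its log2 fold change was 1.00 ± 0.267 on the TMM scale and -0.29 ± 0.268 against the spike-ins (edgeR, adjusted p = 0.00753 and 0.369), and the TMM call was lost without WT replicate 2 or R821E replicate 2 (adjusted p = 0.0503 and 0.0522).

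The balance between the 2 strands of a hairpin can be read without any scale, because both strands come from the same library. limma was run on the log2 of 5p over 3p counts, for 69 hairpins whose arms each averaged 20 counts or more. In R821E 30 hairpins shifted toward 5p (43.5%) and 9 toward 3p (13.0%). The median over all 69 was 0.40. In each of the 39, the R821E values lay entirely to one side of the WT values. Uncalled hairpins such as miR-10a and miR-1307 were also apart in this way, so it adds no support beyond the call. Of the 39 called hairpins, 16 shifts toward 5p and 2 toward 3p (miR-26b and let-7a) stayed called when any 1 of the 4 libraries was left out.

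miR-29a, a repressor of collagens and DNA methyltransferases, had the shift with the smallest error among the 8 largest toward 5p. The 5p strand made up 33.8% and 34.2% of its counts in WT and 70.6% and 69.5% in R821E. Per 1000 spike-in counts, miR-29a-3p was at 236.7 and 290.8 in WT and 59.3 and 53.4 in R821E, and miR-29a-5p at 120.9 and 151.2 against 142 and 122. The 3p strand dropped with no overlap while the values of the 5p strand interleaved. The shift was 2.18 ± 0.167 (limma, adjusted p = 4.20e-06). miR-454 had the same form, with miR-454-3p at 3.67 and 8.29 against 0.802 and 0.742 per 1000 spike-in counts and miR-454-5p at 8.05 and 7.66 against 8.48 and 7.79.

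miR-221 had the largest shift, 3.56 ± 0.626 (limma, adjusted p = 0.00165), from 8.82% and 24.7% of counts on the 5p strand in WT to 67.6% and 67.9% in R821E. The WT libraries disagreed in miR-221-5p, at 67.1 and 213.3 per 1000 spike-in counts, and the R821E libraries, at 200.1 and 180.8, lay within that range. miR-200a, of the epithelial miR-200 family, moved from 9.68% and 5.81% to 38.0% and 42.2% on the 5p strand, and miR-27a from 4.05% and 5.37% to 21.3% and 19.8%. miR-331 (shift 2.55), miR-29c (2.13) and miR-18a (2.10) completed the 8 largest. In all 8 the 3p strand fell on the spike-in scale and the 5p strand was not called on it.

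In the 9 shifts toward 3p the 5p strand fell on the spike-in scale. The 3p strand was not called in 6 of them and fell as well in miR-324, miR-31 and miR-30a. In miR-26b, whose 5p strand is its usual guide, the 5p strand was at 69.8 and 81.9 per 1000 spike-in counts in WT and 24.1 and 21.1 in R821E, and the 3p strand at 3.49 and 9.55 against 7.01 and 7.52. The share of 5p went from 95.2% and 89.6% to 77.4% and 73.7%, a shift of -2.07 ± 0.497 (limma, adjusted p = 0.00635). let-7a moved from 94.0% and 92.4% to 80.1% and 76.9%, a shift of -1.91 ± 0.250 (limma, adjusted p = 1.94e-04), with let-7a-5p at 171.4 and 249.4 against 67.6 and 57.6 per 1000 spike-in counts and let-7a-3p overlapping at 10.9 and 20.7 against 16.8 and 17.4. miR-96 (-1.58), let-7b (-1.20), let-7g (-1.14), miR-324 (-1.01), miR-31 (-0.92), miR-181a (-0.85) and miR-30a (-0.74) were the other 7. All 7 lost their call without WT replicate 1 and also without at least 1 R821E library: let-7b and let-7g without R821E replicate 2, miR-324, miR-31 and miR-181a without R821E replicate 1, and miR-96 and miR-30a without either.

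Taken by pairs on the spike-in scale, both strands fell in 35 of the 69 hairpins, the 3p strand alone in 17, the 5p strand alone in 12 and neither in 5. In 9 hairpins the dominant strand changed between the group means. It went from 3p to 5p in miR-130b, miR-153, miR-221, miR-29a, miR-29c, miR-331, miR-423 and miR-455, and from 5p to 3p in miR-324. In miR-130b, miR-153 and miR-324 the 2 WT libraries differed in which strand was dominant. To sort hairpins without the WT libraries, the dominant strand was taken from the other mutants. Of 22 hairpins led by 3p there, 16 were called toward 5p and 1 toward 3p, and all 22 3p strands were lower on the spike-in scale. Of 47 led by 5p, 14 were called toward 5p and 8 toward 3p, and 30 of 47 3p strands and 35 of 47 5p strands were lower.

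**Figure D3:**
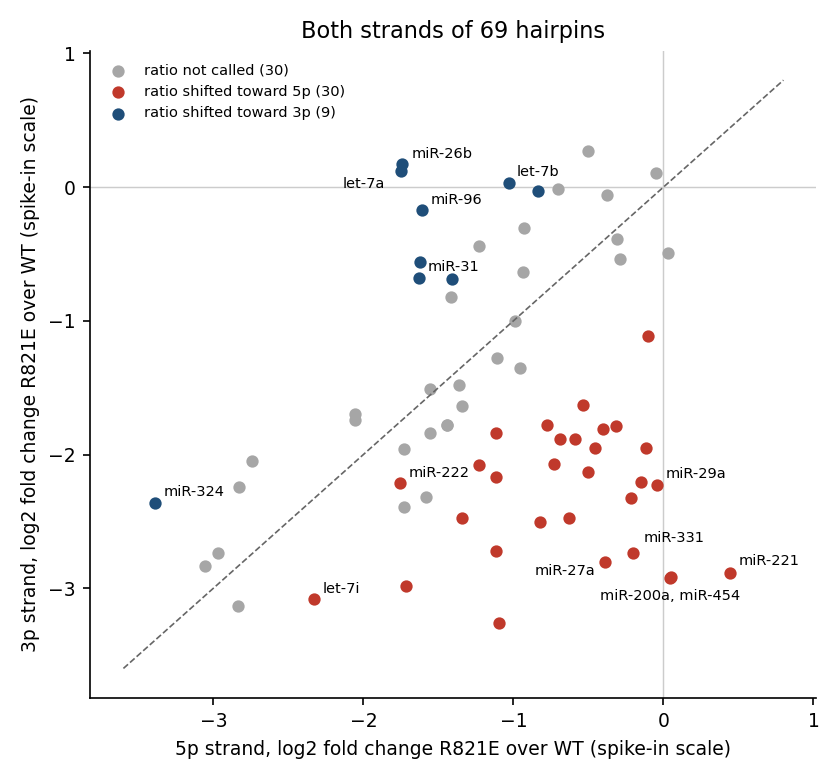
Log2 fold change (R821E over WT, spike-in scale) of the 5p strand (horizontal axis) and of the 3p strand (vertical axis) for 69 hairpins, with the 30 called toward 5p in red and the 9 called toward 3p in blue. Points below the dashed line of equal change lost more 3p than 5p strand, and miR-29a, miR-331, miR-454 and miR-200a sit near 0 for 5p and below -2 for 3p.

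**Figure D4:**
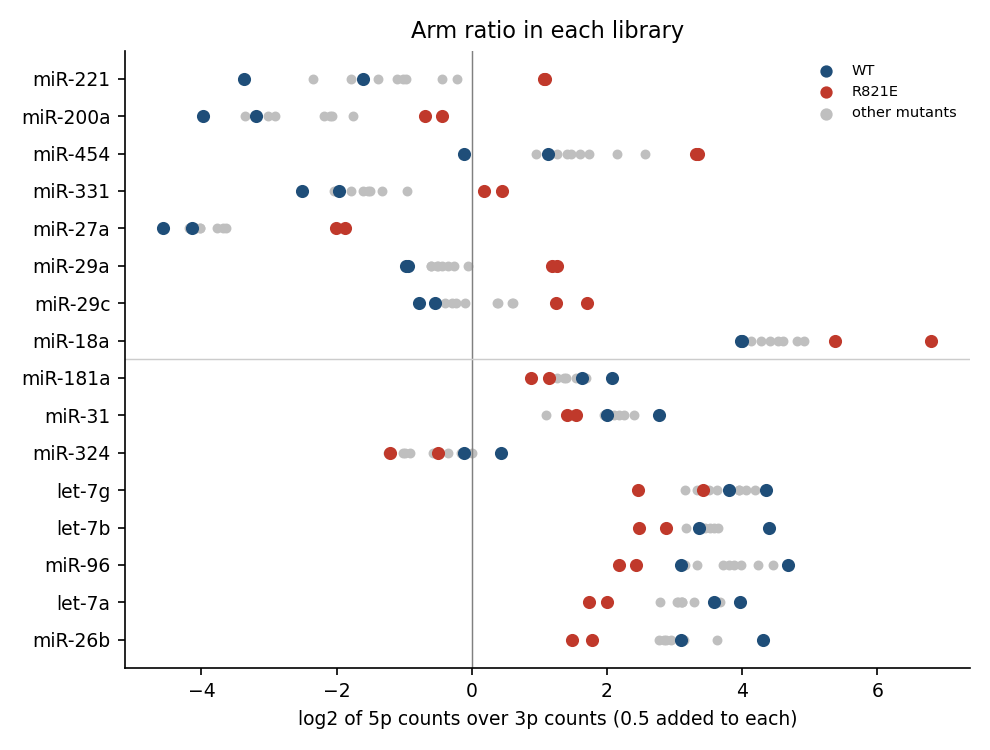
Log2 of 5p over 3p counts in single libraries for the 8 largest shifts toward 5p (upper block) and toward 3p (lower block), with WT in blue, R821E in red and the 8 libraries of the other mutants in grey. In the upper block both red points lie to the right of both blue points, and also of the grey points except in miR-18a, where a grey point is hidden behind the lower red one.

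The first base of the 3p strand, as given by RefSeq, went with the size of the change, a feature that was looked at after the data were seen. The counts are per entry and hold no read ends. Whether 3p strands kept these 5′ ends in R821E was therefore not tested. Of 47 tested 3p strands that begin with U, 27 fell and 1 rose on the TMM scale (57.4% lower, against 39.7% of the 136 3p strands with a sequence), with a median log2 fold change of -1.003. Of 44 that begin with C, 12 fell and 8 rose, with a median of -0.18. The medians for A and G were -0.50 over 33 strands and -0.53 over 12. On the spike-in scale 42 of the 47 strands that begin with U fell and 24 of the 44 that begin with C. The strands that begin with U belong to 39 seeds. Among them are miR-365a-3p and miR-365b-3p, which may count the same reads. Strands that begin with U were also more abundant, with a median of 286 CPM in WT against 145 for C. Leaving out R821E replicate 2 reduced the 27 falls to 13 and leaving out R821E replicate 1 to 17, while the median stayed between -0.80 and -1.003.

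Summed over all 3p entries with that first base, tested or not, 3p strands that begin with U made up 1.87 and 1.99 counts per spike-in count in WT and 0.395 and 0.374 in R821E, 19.9% of WT. In the other mutants they ranged from 1.12 to 1.51. Strands that begin with C made up 0.336 and 0.403 in WT and 0.140 and 0.139 in R821E, 37.7% of WT. Strands that begin with A, mostly miR-221-3p and miR-222-3p, were at 21.5% of WT, and those with G at 28.2%. Both groups of libraries were apart for each base, and the exceptions by miRNA are plain: miR-25-3p begins with C and had the largest fall among abundant entries, and of strands that begin with U the abundant miR-29b-3p was not called on the TMM scale (-0.72; edgeR, adjusted p = 0.0924). Among 5p strands U, A and C stood in the same order with smaller gaps, and G was the lowest. The medians there on the TMM scale were 0.03 for U (74 strands), 0.18 for A (39), 0.38 for C (25) and -0.77 for G (13).

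The strand balance is computed from the same 3p counts, so its division by first base is not a separate result. Of 20 hairpins whose 3p strand begins with U, 15 were called toward 5p and 0 toward 3p (median shift 1.44). Of 20 whose 3p strand begins with C, 5 were called toward 5p and 6 toward 3p (median -0.04). For A, 6 of 16 were called toward 5p and 2 toward 3p (median 0.32). For G, 4 of 8 were called toward 5p and 0 toward 3p (median 0.74). Among hairpins led by 5p in the other mutants, the medians were 1.20 for U (9 hairpins), 0.01 for C (19), -0.58 for A (10) and 0.06 for G (5). Among hairpins led by 3p there, the medians were 1.68 for U (11), 1.03 for A (6) and 1.34 for G (3). With only 1 hairpin for C, U and C cannot be compared among the latter. Loop length, strand length and the number of A and U among the first 4 bases had rank correlations with the shift between -0.15 and 0.18 across 48 to 64 hairpins, which share the same libraries and are not independent. Over single strands, GC percent had rank correlations with the log2 fold change (TMM scale) of -0.27 for 136 3p strands and -0.19 for 151 5p strands. The level in WT had -0.26 and 0.02.

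**Figure D5:**
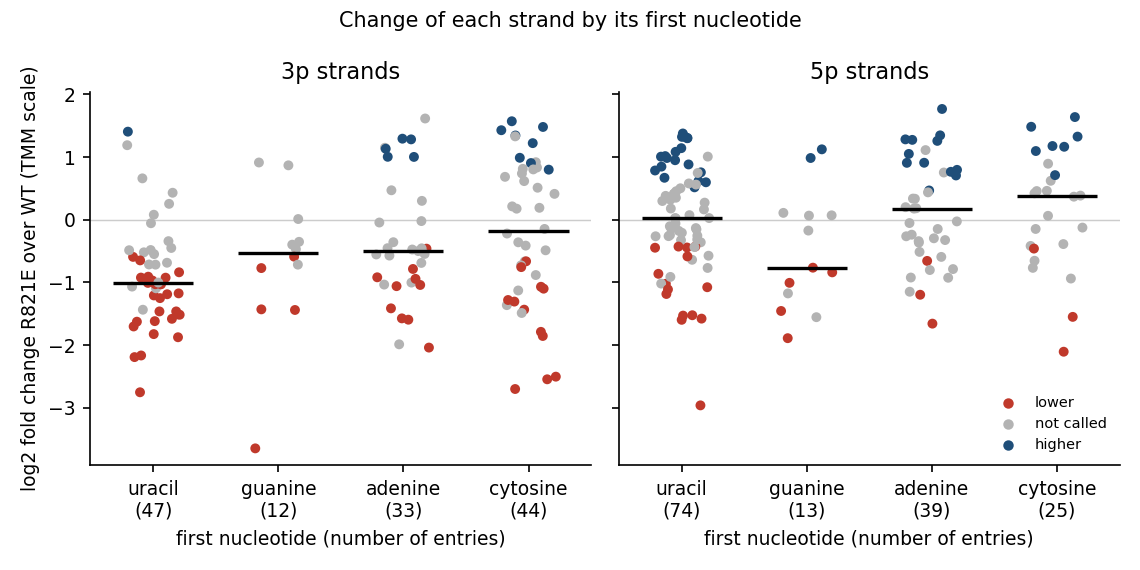
Log2 fold change (R821E over WT, TMM scale) of tested 3p strands (left) and 5p strands (right) by first nucleotide, each point being an entry, with called entries in colour and black bars at the medians. Among 3p strands the bar is at -1.003 for uracil and at -0.18 for cytosine, and among 5p strands it is at 0.03 for uracil and -0.77 for guanine.

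Counts were also summed by hairpin and by seed. The seeds are those of RefSeq, and whether strands kept them in R821E was not tested. Of 283 hairpin sums tested, 65 rose (23.0%) and 69 fell (24.4%) on the TMM scale, with miR-185 (-3.04) and miR-25 (-2.63) among the falls, while the sum of miR-221 was not called (-0.24) and fell on the spike-in scale (-1.53). Of 265 seed sums tested, 65 rose (24.5%) and 62 fell (23.4%) on the TMM scale, and 41 of the seeds had at least 2 tested members. Among these 41, 14 sums rose and 15 fell on the TMM scale, and 31 fell on the spike-in scale. The 4 deepest falls on the TMM scale were those of miR-103a-3p and miR-107 (-1.59 on the TMM scale, -2.91 on the spike-in scale), of the miR-25 and miR-92 strands (given above), of miR-365a-3p and miR-365b-3p (-1.42 and -2.76) and of miR-27a-3p and miR-27b-3p (-1.37 and -2.71). Taken singly, miR-365a-3p and miR-365b-3p had equal log2 fold changes (-1.463 on the TMM scale, -2.751 on the spike-in scale). They may therefore count the same reads. The sum of miR-221-3p and miR-222-3p was at -1.03 and -2.37, and that of miR-29a-3p, miR-29b-3p and miR-29c-3p at -0.77 and -2.13. The seed of the miR-200b-3p, miR-429 and miR-200c-3p strands, which hold back ZEB1 and ZEB2, fell by 0.73 and 2.07.

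Other seeds rose on the TMM scale. The seed of miR-16-5p and miR-15a-5p had 5 of 6 tested members higher and none lower, of which only miR-16-5p and miR-15a-5p stayed called without each library in turn. Its sum was 0.72 on the TMM scale, 0.14 with library totals and -0.62 on the spike-in scale, where it fell. The seed of miR-17-5p, miR-20a-5p and miR-106b-5p, drivers of proliferation, was at 0.44 on the TMM scale, -0.15 with library totals and -0.90 on the spike-in scale. The seed of miR-181a-5p and its paralogues was at 0.63, 0.05 and -0.72 in the same order. Of all 41 shared seeds only ACCCGUA had members called both ways on the TMM scale. There miR-100-5p rose and miR-99b-5p fell (-1.55 ± 0.224; edgeR, adjusted p = 1.47e-04), from 47.1 and 35.2 to 5.14 and 6.401 per 1000 spike-in counts.

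Members of the let-7 family, repressors of HMGA2, LIN28 and RAS genes, were lowered unevenly. let-7d-5p was at 33.2 and 67.4 per 1000 spike-in counts in WT and 7.35 and 5.38 in R821E, and let-7i-5p at 137.8 and 184.8 against 30.7 and 33.6. let-7b-5p went from 70.6 and 92.9 to 39.9 and 40.1, a smaller drop, also with no overlap. The log2 fold changes on the TMM scale were -1.66 for let-7d-5p, -1.60 for let-7e-5p, -1.02 for let-7i-5p and 0.27 for let-7b-5p, the last not called. Of 9 tested strands with the let-7 seed, 6 fell and none rose, of which let-7a-5p and miR-98-5p lost their call without WT replicate 2 or R821E replicate 1, and let-7a-5p also without R821E replicate 2. Their sum changed by -0.54 in log2 on the TMM scale and -1.90 against the spike-ins. Reads shared between let-7 members may have been counted for either, so single members are uncertain. The 3p passenger strands of let-7a, let-7b and let-7f-2 rose on the TMM scale (1.43, 1.34 and 1.37) and were between 0.03 and 0.12 on the spike-in scale, not called. Those of let-7d (-1.435) and let-7i (-1.79) fell on the TMM scale, and let-7e-3p (-1.36) and let-7g-3p (0.74) were not called. let-7d-3p lost its call without WT replicate 2 or R821E replicate 2. let-7b-3p lost its call without WT replicate 1 or R821E replicate 2. Group II let-7 hairpins, whose precursors are mono-uridylated before DICER cuts them, had 6 of 13 tested strands lower and 2 higher on the TMM scale. Over all tested entries 24.1% were lower and 23.8% higher.

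In several clusters the strands did not move together. In the miR-106b~25 cluster miR-25-3p fell, miR-106b-5p (0.85) and miR-93-3p (1.00) rose and miR-93-5p was not called on the TMM scale. In the miR-17~92a-1 cluster, an oncogenic transcript, 4 of 12 strands rose and 4 fell, with miR-92a-3p (-1.58) and miR-19b-3p (-1.01) among the falls and miR-20a-5p (0.60) and miR-18a-5p (1.08) among the rises. Both miR-92a-3p and miR-19b-3p also come from loci on chromosome X, so their counts are not those of this transcript alone. miR-19b-3p lost its call without WT replicate 1 or either R821E library, and miR-93-3p without WT replicate 1 or R821E replicate 2. In the cluster of miR-200b, miR-200a and miR-429, which keeps cells epithelial, the 3 strands miR-200b-3p (-0.65), miR-200a-3p (-1.63) and miR-429 (-1.36) fell and the 2 strands miR-200b-5p (1.18) and miR-200a-5p (1.33) rose. Of these 5, only miR-200a-3p stayed called without each library in turn.

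In some clusters all calls on the TMM scale were in 1 direction. In the cluster of miR-99b, let-7e and miR-125a, 3 of 6 strands fell and none rose on the TMM scale (median -1.46), and all 6 fell on the spike-in scale (median -2.72). In the clusters of miR-181a and miR-181b all 5 tested strands rose on the TMM scale and 2 with library totals (medians 1.00 and 0.46), and their median was -0.29 on the spike-in scale, with 2 lower. In the miR-15b~16-2 cluster 3 of 4 rose on the TMM scale (median 0.59), which became 0 higher and 1 lower with library totals (median 0.04) and 0 and 3 on the spike-in scale (median -0.70). One of its strands, miR-16-5p, also comes from a locus on chromosome 13. In the cluster of miR-183, miR-96 and miR-182, 2 of 6 rose on the TMM scale, which became 1 higher and 2 lower with library totals and 0 and 2 on the spike-in scale. Of the 2, miR-96-3p lost its call without WT replicate 1 or either R821E library. In the same cluster miR-182-5p, at 59.7 and 50.4 per 1000 spike-in counts in WT and 21.3 and 24.3 in R821E, was not called on the TMM scale (0.02) and fell on the spike-in scale (-1.27).

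Repressors of DICER1 were listed by hairpin name (the let-7 family, miR-98, miR-103a and miR-107), so passenger strands without the let-7 seed are included. Passenger strands named for a single locus were left out. Among those left out, let-7f-2-3p (1.37), let-7f-1-3p (0.92), let-7a-2-3p (0.81) and miR-103a-2-5p (0.75) were all positive on the TMM scale. Of these only let-7f-2-3p was called. In the list itself 10 of 18 tested members were lower and 2 higher on the TMM scale, beside 24.1% and 23.8% of all tested entries. The median was -0.94 beside -0.10 over all tested entries. On the spike-in scale 15 of 18 were lower, beside 60.4% of all tested entries. The 2 higher members were the passenger strands let-7a-3p and let-7b-3p. Most members are the let-7 strands already counted. miR-877 is a mirtron, freed by splicing of ABCF1 instead of DROSHA cleavage, and both of its strands fell. miR-877-5p was at 4.47 and 6.93 per 1000 spike-in counts in WT and 0.735 and 0.464 in R821E, with no overlap, and miR-877-3p had 54 counts in WT and 4 in R821E. miR-484, whose hairpin starts at a transcription start site, also fell (-0.93; edgeR, adjusted p = 0.0039), from 19.9 and 19.0 to 4.08 and 4.27, and lost its call without R821E replicate 1. Among oncogenic miRNAs 10 of 35 rose and 9 fell on the TMM scale (median 0.25), shares near the 23.8% and 24.1% of all tested entries. With library totals 4 rose and 15 fell (median -0.29). On the spike-in scale 22 of 35 fell, a share near the 60.4% of all tested entries. Among tumour suppressors of the p53 and RB pathways 4 of 13 rose and 1 fell on the TMM scale (median 0.37). These counts became 0 and 3 with library totals (median -0.18). On the spike-in scale they were 0 and 7 of 13, beside 60.4% lower over all tested entries.

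For 8 called entries the mean was at most 3 counts per library in a group, so a ratio of scaled counts with its exact 95% interval (Clopper-Pearson, counting error only) replaces the fitted fold change. miR-877-3p had a ratio of R821E to WT of 0.146 (0.0384 to 0.396) on the TMM scale. miR-3200-3p, with 4 counts against 48, had 0.164 (0.0430 to 0.449), and miR-4787-3p, with 1 against 28, had 0.0704 (0.00172 to 0.426). miR-1915-3p, miR-203b-3p, miR-2110 and miR-3187-3p were lower too, with ratios of 0.171 to 0.229. miR-1257 was the only one higher, with 18 counts against 6 and a ratio of 5.91 (2.25 to 18.2). miR-1915-3p stayed called on the TMM scale without each library in turn. The other 7 lost their call without R821E replicate 1 or R821E replicate 2, and miR-203b-3p, miR-3187-3p and miR-4787-3p also without WT replicate 2. miR-3187-3p is one of the 12 largest falls by the rule for named entries.

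R821E was also set against the mean of the other 4 mutants in the same fit, a contrast that uses no WT library. On the TMM scale 84 entries were higher (22.5%) and 80 lower (21.4%). Without R821E replicate 1 the total of 164 became 82, and without R821E replicate 2 it became 90. miR-25-3p was lower by a log2 difference of -1.94, followed by miR-193a-3p (-1.91), miR-185-5p (-1.64), miR-33b-5p (-1.52) and miR-92b-3p (-1.49). miR-33b-5p, encoded in the lipid regulator SREBF1, was at 2.54 and 3.06 per 1000 spike-in counts in R821E, below the 12.2 to 17.7 of the other mutants and the 21.4 and 15.95 of WT. The leading rises in this contrast were miR-8072 (2.61), miR-3607-3p (1.46), miR-1275 (1.41), miR-573 (1.37) and miR-548n (1.33), of which miR-3607-3p and miR-548n lost their call without R821E replicate 1. Of the 3p strands that begin with U, 24 of 47 were lower than in the other mutants and 1 was higher, against 9 lower and 7 higher of the 44 that begin with C. The arm shift of miR-221 against the other mutants was 2.23 and that of miR-29a 1.64, both called by limma.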

How the data were processed

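Small RNA from HCT116 cells was sequenced by AQ-seq on a NovaSeq 6000, per the labels' protocols, with RNA extracted by TRIzol. The authors deposited raw counts per miRNA and spike-in entry. cutadapt, BWA and bedtools, with builds hg38 and mm10, are named in the submitters' processing notes. Their versions and the handling of reads matching several entries are not stated. The counts of miR-500b-5p equal those of miR-500a-5p in every library. Log2 fold changes were equal for miR-365a-3p and miR-365b-3p on both scales, and for miR-548ai and miR-570-5p on the TMM scale (1.282). Each of these pairs may count the same reads. Counts were tested with edgeR 4.0.16 in R 4.3.3 (TMM, filterByExpr, robust quasi-likelihood) over all 12 libraries, leaving 6 residual degrees of freedom, and again with spike-in totals as library sizes. Arm ratios, log2((5p + 0.5)/(3p + 0.5)), were tested with limma 3.58.1 with a trend over the mean count. p-values were Benjamini-Hochberg adjusted, with a threshold of 0.05. CPM on the TMM scale need not have the same sum in each library. At these depths 3 counts correspond to 10.4 to 26.1 CPM; PCR reads are not independent molecules, so intervals and floors cover counting error only. Scripts were tested on simulated data.

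The members and lists were chosen with earlier results of these data known. Named entries are the 12 largest called falls and rises on the TMM scale with at least 100 CPM in either group and groups apart, the 10 highest in WT, 8 hairpins each way by arm shift, their other arms, up to 4 examples per list, 6 seeds and 5 entries each way against the other mutants. The comparison by first nucleotide, the spike-in fits of hairpins and seeds, and the crossed block were added after seeing the data. DESeq2 1.42.0 was an alternative.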

Additional observations from a re-analysis of the deposited data

How the results depend on the processing

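Counts of called entries on the TMM scale ranged from 114 to 169 when 1 of the 4 libraries was left out, against 179. Without R821E replicate 1 there were 114, and 109 of the 179 remained called. Left-out ranges were 193 to 231 on the spike-in scale (227), 89 to 120 for seed sums (127), 82 to 90 against the other mutants (164) and 25 to 38 for arm ratios (39). Arm-ratio calls became 25 without WT replicate 1, 25 with only the 4 libraries compared, and 11 among the 15 hairpins whose arms each averaged 100 counts or more. With library totals in place of TMM, higher and lower calls became 40 and 148 for entries, 32 and 122 for hairpin sums, 32 and 105 for seed sums, and 27 and 138 against the other mutants. With no filter they were 44 and 74 for seed sums and 63 and 92 against the other mutants. Without the most abundant entry, the share of the next entry in R821E was 49.1% of that in WT, where miR-21-5p gave 138.5%. With library totals the log2 fold changes of miR-181a-5p, miR-15b-5p, miR-182-5p and miR-191-5p turned to -0.0726, -0.0348, -0.53 and -0.49. Values that passed under neither setting were given no direction. DESeq2 called 157 entries (84 higher, 73 lower) and limma-voom 179.

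The labels do not say whether the replicate numbers pair the samples. Deviations of same-numbered WT and R821E libraries had a correlation of -0.15, and the correlations ranged from -0.46 to 0.32 over all pairs of groups. With 2 libraries in each group these values cannot settle whether samples were paired. With the replicate block 171 entries were called on the TMM scale, 220 on the spike-in scale, 130 hairpin sums, 121 seed sums, 149 against the other mutants and 37 arm ratios. With the pairing crossed, 174 were called. With 144067 counts in the shallower R821E library, 617 entries were detected there and 800 in the deepest WT library, so low entries in R821E carry the widest error.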
